A study of Mus musculus with 9 samples.

Results

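A set of 7 genes that encode selective autophagy receptors, Sqstm1 (which encodes p62), Nbr1, Optn, Tax1bp1, Calcoco1, Tollip and Wdfy3, were followed in cultured mouse hepatic stellate cells, the liver cells that turn into collagen-producing myofibroblasts on injury. They were the rows with these 7 symbols among the 14020 genes of the deposited expression table. RNA sequencing covered 9 libraries in 3 groups of 3: cells labelled as a double knock-out of Nbr1 and Sqstm1 (Nbr1-Sqstm1 DKO), cells labelled as an Sqstm1 knock-out (Sqstm1 KO), and wild-type (WT) cells. The cells of each group came from liver and grew for 4 days in DMEM with 10% fetal bovine serum, with no treatment, so both knock-out groups lack Sqstm1 by label and differ from each other by the Nbr1 label. Reads of Y-linked genes, given below, also differed between these groups. The labels give neither age nor strain, do not say how the alleles were made, and do not say that the 3 libraries of a group came from separate animals or cultures, so p-values measure the spread between these libraries, which may be technical. The design text of the series speaks of biological replicates but names an Nbr1 knock-out with wild type, which is not the set of genotypes on the samples. Values are read counts divided by a size factor for each library, called normalized counts here.

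Selective autophagy receptors hold a cargo, often tagged with ubiquitin, with one part of the protein and bind ATG8 proteins on the growing autophagosome membrane with another, which carries the LC3-interacting region. p62 gathers ubiquitinated proteins into condensates, and NBR1 and TAX1BP1 join it there. p62 also binds KEAP1, the inhibitor of the antioxidant transcription factor NRF2, and Sqstm1 is itself an NRF2 target; in hepatic stellate cells p62 is known as a partner of the vitamin D receptor.

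Promoters of 3 of the genes are shown as background, and no test of expression used them. Sqstm1 shares its promoter region with a neighbour, Nbr1 is the second labelled target, and Tax1bp1 had separated values. Each run is 300 bases, 250 before and 50 after the start in RefSeq on the GRCm38.p6 build, an earlier build than the GRCm39 of the expression values, and reads 5′ to 3′ on the gene's strand. Capitals mark matches to 4 motifs on either strand. The TATA box was searched as TATAAA and the GC box as GGGCGG. The antioxidant response element, the kind of site to which NRF2 binds, was searched as TGACNNNGC. The core of the E-box to which TFEB binds was searched as CACGTG. Matches to different motifs could overlap.
Sqstm1, chr11:50210771-50211070, minus strand: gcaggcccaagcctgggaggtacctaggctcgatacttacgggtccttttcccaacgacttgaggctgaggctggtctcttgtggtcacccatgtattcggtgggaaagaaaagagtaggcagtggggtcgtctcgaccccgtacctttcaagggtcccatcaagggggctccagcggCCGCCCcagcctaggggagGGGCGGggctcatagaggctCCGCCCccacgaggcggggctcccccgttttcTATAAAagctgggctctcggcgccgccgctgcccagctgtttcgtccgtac
Nbr1, chr11:101552404-101552703, plus strand: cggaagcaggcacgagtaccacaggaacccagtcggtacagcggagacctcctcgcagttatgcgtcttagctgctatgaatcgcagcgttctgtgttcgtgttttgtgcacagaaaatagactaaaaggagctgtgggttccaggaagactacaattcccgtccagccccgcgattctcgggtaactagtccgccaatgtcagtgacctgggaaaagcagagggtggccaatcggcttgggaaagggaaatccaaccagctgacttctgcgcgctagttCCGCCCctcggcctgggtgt
Tax1bp1, chr6:52713915-52714214, plus strand: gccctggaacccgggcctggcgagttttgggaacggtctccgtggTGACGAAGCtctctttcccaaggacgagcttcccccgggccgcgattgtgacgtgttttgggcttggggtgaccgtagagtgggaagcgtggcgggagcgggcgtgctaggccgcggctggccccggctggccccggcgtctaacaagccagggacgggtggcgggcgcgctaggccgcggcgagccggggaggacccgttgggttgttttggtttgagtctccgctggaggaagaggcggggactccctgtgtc
The Sqstm1 window held 1 TATA box and 3 GC boxes, the Nbr1 window 1 GC box and the Tax1bp1 window 1 antioxidant response element. Windows were found for 6 of the 7 genes, and Nbr1 and Tax1bp1 had 2 each. The antioxidant response element stood in no other window of the 6 genes and the E-box core in none of them. Among all 32851 promoter windows of RefSeq, 12.4% held the antioxidant response element, 7.2% the E-box core, 13.6% the TATA box and 35.7% the GC box. A match is a run of letters, not a shown site.

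The libraries held 819677 to 1467793 reads, recovered as whole numbers from the deposited values. Of 8 stellate cell markers 5 had a row (Pdgfrb, Vim, Acta2, Col1a1 and Col1a2), with summed normalized counts of 3380 to 5740 in Nbr1-Sqstm1 DKO, 4740 to 5470 in Sqstm1 KO and 1510 to 1630 in WT libraries; Des, Lrat and Reln had none. No hepatocyte, cholangiocyte or lymphocyte marker on the lists had a row. Macrophage markers (4 of 6 with a row) summed to 14.3 to 29.3 in Nbr1-Sqstm1 DKO, 8.68 to 12.3 in Sqstm1 KO and 20.3 to 35.4 in WT libraries, and Stab2 was the only 1 of 5 endothelial markers with a row, at 2.87 to 12.6, 2.17 to 8.17 and 9.7 to 16.3 normalized counts in the same groups. Of the Y chromosome, Uty, Kdm5d, Eif2s3y and Ddx3y had 6 to 50 reads in every Nbr1-Sqstm1 DKO library, 0 reads in every Sqstm1 KO library and 9 to 126 reads in every WT library. These reads set the Sqstm1 KO group apart from both others. In comparisons with that group, genotype and a possible difference in sex cannot be told apart. Between Nbr1-Sqstm1 DKO and WT, Eif2s3y also differed, with 5.74, 10.3 and 29.3 normalized counts against 72.2, 64.8 and 60.6. It was the only 1 of the 4 to pass the test described below in that comparison (limma adjusted p = 0.0162). Values of Ddx3y were 47.8, 44.5 and 54.8 against 76.3, 67.8 and 76.4, without overlap, while those of Uty and Kdm5d overlapped. Sqstm1 KO replicate 3 stood apart by 2 measures, with 18.5% of its reads in its 10 highest genes, against 9.7% to 13.9% in the other libraries, and with reads in 12673 genes, against 13349 to 13794. Its lowest correlation of log2 values within the group (r = 0.847) was also that of Sqstm1 KO replicate 2. The part of the markers, the Y-linked genes and that library in the results that follow was not tested except where values without it are given, and in bulk RNA fewer cells of a type and less RNA per cell cannot be told apart.

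Sqstm1 was lower in both knock-out groups and was the only 1 of the 7 genes that passed the test. It had 25.8, 51.4 and 59.9 normalized counts in the Nbr1-Sqstm1 DKO libraries, 40.8, 30.8 and 86.8 in the Sqstm1 KO libraries, and 223, 255 and 243 in the WT libraries. All 6 knock-out libraries lay below all 3 WT libraries, while the 2 knock-out groups overlapped. Reads remained in each knock-out library, 119 over the Nbr1-Sqstm1 DKO group and 158 over the Sqstm1 KO group, against 903 over the WT group. By limma on log2(value + 1), with Benjamini-Hochberg adjustment over 10118 tested genes, the log2 fold change was -2.30 ± 0.38 (SE; adjusted p = 0.0023) in Sqstm1 KO against WT and -2.45 ± 0.38 (SE; adjusted p = 0.00116) in Nbr1-Sqstm1 DKO against WT. Between Nbr1-Sqstm1 DKO and Sqstm1 KO the log2 fold change was -0.15, with a 95% interval of -0.96 to 0.66. Comparisons with WT share the WT libraries, and those with Sqstm1 KO share its libraries.

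Nbr1, which encodes the p62 partner with a similar domain order and the second labelled target, did not pass the test in any comparison. It had 81.3, 79.9 and 111 normalized counts in libraries labelled Nbr1-Sqstm1 DKO, 75.5, 72.2 and 88.9 in Sqstm1 KO libraries, and 106, 92.7 and 106 in WT libraries. The values of libraries labelled Nbr1-Sqstm1 DKO overlapped those of both other groups, and their mean of 90.7 ± 17.4 lay between 78.9 ± 8.85 in Sqstm1 KO and 101 ± 7.64 in WT (SD, n = 3 each). The log2 fold change of Nbr1 in Nbr1-Sqstm1 DKO was 0.19 against Sqstm1 KO, with a 95% interval of -0.34 to 0.71, and -0.17 against WT, with an interval of -0.70 to 0.35. A count over a whole gene can stay near its level when a deletion removes few exons, and where the Nbr1 allele was changed is not given in the sources used here, so the values do not check the deletion. In Sqstm1 KO all 3 Nbr1 values lay below all WT values, with a log2 fold change of -0.36 (interval -0.89 to 0.16; limma adjusted p = 0.452).

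Tax1bp1, a ubiquitin-binding receptor that recruits the initiation machinery to p62 condensates, was the gene with values above WT in Sqstm1 KO. It had 86.1, 77.6 and 79.0 normalized counts in Nbr1-Sqstm1 DKO libraries, 87.8, 112 and 175 in Sqstm1 KO libraries, and 58.6, 67.0 and 80.6 in WT libraries. All 3 Sqstm1 KO values lay above all WT values and above all Nbr1-Sqstm1 DKO values, and the highest came from replicate 3, the library that stood apart. The log2 fold change in Sqstm1 KO against WT was 0.80 ± 0.28 (SE; interval 0.20 to 1.41), with an unadjusted limma p of 0.0125 and an adjusted p of 0.122, so it did not pass over all genes. Without Sqstm1 KO replicate 3 it was 0.53, and without Sqstm1 KO replicate 1 it was 1.03. In Nbr1-Sqstm1 DKO the log2 fold change was -0.56 against Sqstm1 KO (interval -1.17 to 0.04; adjusted p = 0.301) and 0.24 against WT (interval -0.36 to 0.84; adjusted p = 0.674).

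Wdfy3, which encodes ALFY, a large scaffold that links p62-bound aggregates to the autophagy machinery, had values below WT in both knock-out groups. It had 38.2, 20.6 and 31.8 normalized counts in Nbr1-Sqstm1 DKO libraries, 35.7, 43.8 and 11.9 in Sqstm1 KO libraries, and 44.9, 55.7 and 49.1 in WT libraries. No knock-out value reached the lowest WT value, and the lowest of all came from Sqstm1 KO replicate 3. The log2 fold change was -0.87 in Sqstm1 KO against WT (interval -1.78 to 0.03; limma adjusted p = 0.279) and -0.74 in Nbr1-Sqstm1 DKO against WT (interval -1.65 to 0.16; adjusted p = 0.332). Without Sqstm1 KO replicate 3 the value in Sqstm1 KO against WT was -0.32, and without Sqstm1 KO replicate 2 it was -1.22. In Nbr1-Sqstm1 DKO against Sqstm1 KO the log2 fold change of Wdfy3 was 0.13 (interval -0.78 to 1.03).

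Optn, whose product is a mitophagy receptor phosphorylated by TBK1, was the lowest of the 7 in normalized counts. It had 10.5, 6.85 and 6.37 in Nbr1-Sqstm1 DKO libraries, 8.17, 4.87 and 7.59 in Sqstm1 KO libraries, and 10.9, 13.6 and 12.1 in WT libraries. Every knock-out value lay below every WT value, with 22, 21 and 46 reads over the 3 groups in the same order. Optn had a log2 fold change of -0.59 in Nbr1-Sqstm1 DKO against WT (interval -1.52 to 0.34; limma adjusted p = 0.47) and -0.77 in Sqstm1 KO against WT (interval -1.69 to 0.16; adjusted p = 0.362). At this depth a difference of that size was not told from 0.

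Calcoco1, an ER and Golgi autophagy receptor, and Tollip, an endosomal adaptor with a ubiquitin-binding CUE domain, had overlapping groups in all 3 comparisons. Calcoco1 had 21, 11.4 and 8.91 normalized counts in Nbr1-Sqstm1 DKO libraries, 9.19, 14.6 and 7.59 in Sqstm1 KO libraries, and 27.2, 14.3 and 16.4 in WT libraries, with a log2 fold change of -0.82 in Sqstm1 KO against WT (interval -1.76 to 0.12). Tollip had 29.6, 17.1 and 14.0 in Nbr1-Sqstm1 DKO libraries, 21.4, 30.0 and 5.42 in Sqstm1 KO libraries, and 19.1, 20.3 and 19.4 in WT libraries, with a log2 fold change of -0.02 in Nbr1-Sqstm1 DKO against WT (interval -1.12 to 1.07). The 3 WT values of Tollip lay close together, while its lowest value of all was in Sqstm1 KO replicate 3, as for Calcoco1 and Wdfy3. In Sqstm1 KO against WT the log2 fold change of Tollip was -0.32 with that library and 0.36 without it.

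**Figure D1:**
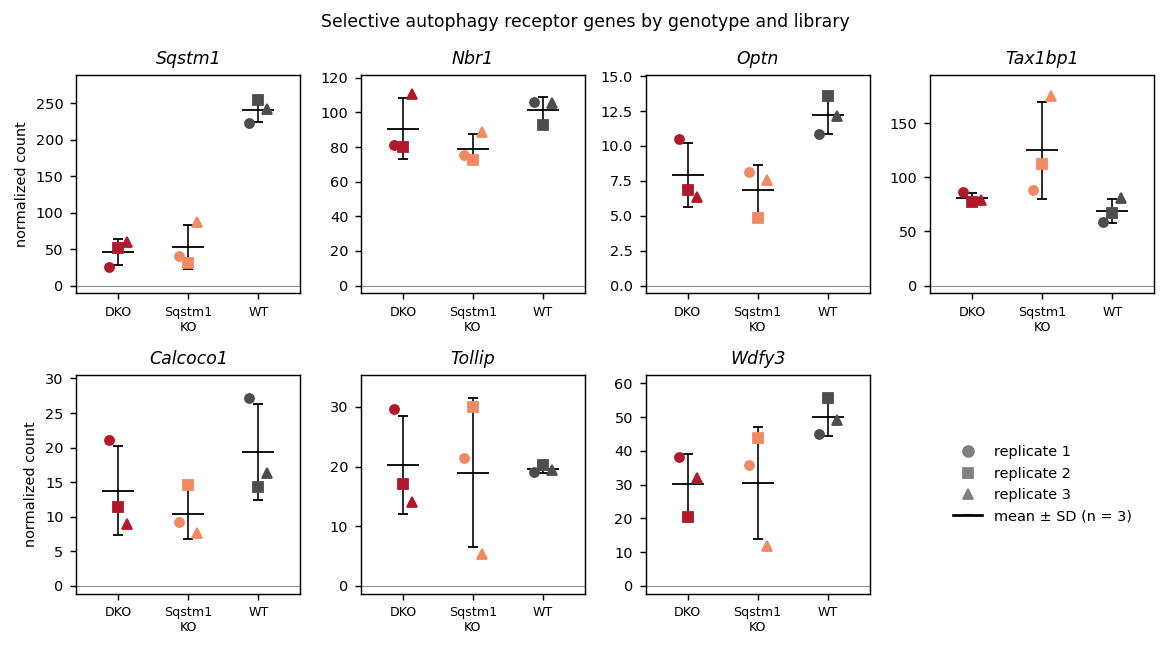
Normalized counts (vertical axes, grey line at 0) of the 7 receptor genes in Nbr1-Sqstm1 DKO (DKO), Sqstm1 KO and WT libraries, with a symbol for each replicate and bars for mean ± SD (n = 3). Sqstm1 lies at 25.8 to 86.8 in the 6 knock-out libraries and at 223 to 255 in WT, while Nbr1 overlaps WT in Nbr1-Sqstm1 DKO. Calcoco1, Tollip and Wdfy3 are lowest in Sqstm1 KO replicate 3.

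All 7 genes passed the filter on low values. In Sqstm1 KO against WT, 1 of 7 was called lower (Sqstm1) and 0 higher, where 5.61% of all tested genes were called, 2.43% higher and 3.18% lower. In Nbr1-Sqstm1 DKO against Sqstm1 KO 0 of 7 were called, by limma, by edgeR and by DESeq2 alike, where limma called 5.93% of all tested genes, 4.42% higher and 1.51% lower. In Nbr1-Sqstm1 DKO against WT 1 of 7 was called lower (Sqstm1) and 0 higher, where 6.42% of all tested genes were called, 4.11% higher and 2.31% lower. At an unadjusted p under 0.05, 2 of 7 passed in Sqstm1 KO against WT (Sqstm1 and Tax1bp1), 0 in Nbr1-Sqstm1 DKO against Sqstm1 KO and 1 in Nbr1-Sqstm1 DKO against WT, where 19.4%, 18.8% and 21.4% of all tested genes did. Leaving out Sqstm1, whose lower count is what the label states, 0 of the other 6 genes were called in any comparison.

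Groups did not overlap for 5 of 7 genes in Sqstm1 KO against WT, where this held for 26% of all tested genes. The 1 higher gene, Tax1bp1, stands beside 12.4% of all genes and the 4 lower ones, Sqstm1, Nbr1, Optn and Wdfy3, beside 13.6%. In Nbr1-Sqstm1 DKO against Sqstm1 KO it held for Tax1bp1, which was lower, where it held for 21% of all genes, 11.5% higher and 9.47% lower. In Nbr1-Sqstm1 DKO against WT it held for 3 genes, Sqstm1, Optn and Wdfy3, all lower, where it held for 31.2% of all genes, 15.7% higher and 15.5% lower. The log2 fold change was below 0 for 6, 2 and 6 of the 7 genes in Sqstm1 KO against WT, Nbr1-Sqstm1 DKO against Sqstm1 KO and Nbr1-Sqstm1 DKO against WT, beside 51%, 50.6% and 51.2% of all tested genes. Its median over the 7 genes was -0.77, 0.18 and -0.49 in that order, beside -0.01, -0.01 and -0.02 over all tested genes.

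**Figure D2:**
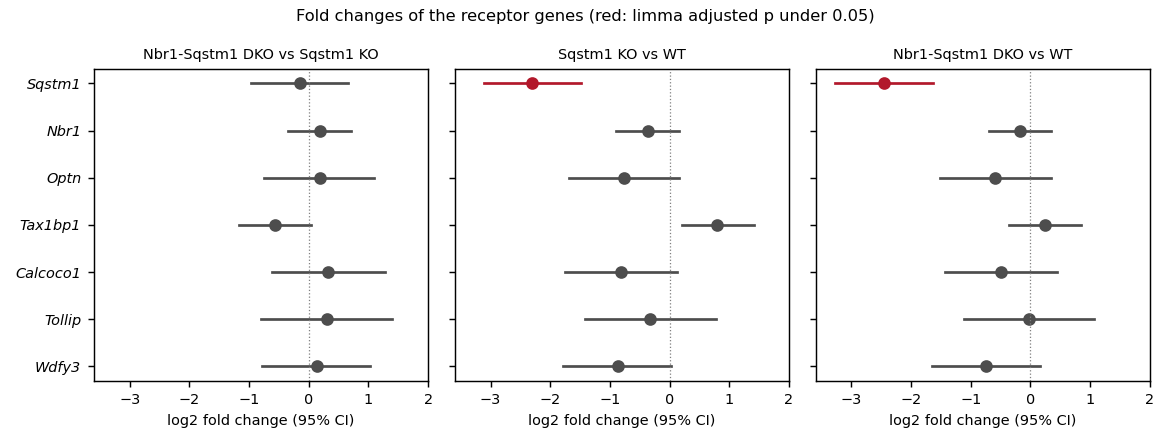
Log2 fold changes (horizontal axis, points) with 95% intervals (lines) of the 7 receptor genes (vertical axis) by limma in the 3 comparisons; red marks an adjusted p under 0.05. Sqstm1 alone is red, at -2.30 and -2.45 against WT, and the interval of Tax1bp1 in Sqstm1 KO against WT runs from 0.20 to 1.41.

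Levels of different genes were compared per kb of exon, with exon lengths from the GENCODE M21 annotation of GRCm38. These lengths took all annotated exons of a gene together. Levels and shares of different genes therefore depend on the annotation, and on how strand was counted, which is not given. In WT libraries Sqstm1 was highest, at 71.6 ± 4.8 normalized counts per kb, followed by Nbr1 at 14.8 ± 1.11 and Tax1bp1 at 6.88 ± 1.12 (SD, n = 3). Tollip at 3.87 ± 0.13, Calcoco1 at 3.37 ± 1.21, Optn at 3.25 ± 0.355 and Wdfy3 at 3.25 ± 0.355 followed, with means closer together than the spread of Calcoco1. In Nbr1-Sqstm1 DKO libraries Sqstm1 was at 13.6 ± 5.28 per kb and Nbr1 at 13.2 ± 2.54, and in Sqstm1 KO libraries Sqstm1 was at 15.7 ± 8.89, Tax1bp1 at 12.5 ± 4.49 and Nbr1 at 11.5 ± 1.29. Within each knock-out group these means lay closer together than the SD of Sqstm1.

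The share of Sqstm1 in the per-kb sum of the 7 genes was 29.7 ± 10.2% in Nbr1-Sqstm1 DKO, 30.6 ± 10.6% in Sqstm1 KO and 66.9 ± 2.06% in WT libraries (SD, n = 3 each). Nbr1 made up 28.9 ± 2.94%, 23.7 ± 2.49% and 13.8 ± 1.46% in the same groups, and Tax1bp1 17.9 ± 2.12%, 25 ± 3.88% and 6.42 ± 0.886%. A share depends on the values of all 7 genes. The sum of the other 6 genes per kb was 31.8 ± 3.68 in Nbr1-Sqstm1 DKO, 33.4 ± 2.88 in Sqstm1 KO and 35.4 ± 1.32 in WT libraries, with ranges of 27.9 to 35.3, 30.1 to 35.6 and 34 to 36.6, which overlap.

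**Figure D3:**
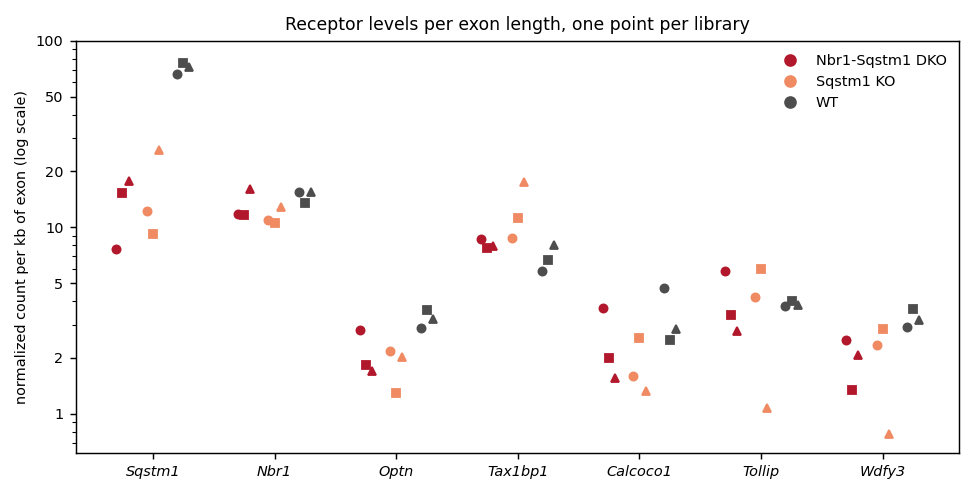
Normalized counts per kb of exon (log axis) of the 7 receptor genes, a point for each library, with symbols for replicates 1 to 3 as circle, square and triangle. In WT the mean of Sqstm1 is 71.6 and that of Nbr1 14.8, while in both knock-out groups the values of Sqstm1 overlap those of Nbr1 and of Tax1bp1.

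Sqstm1 sits on chromosome 11 beside 2 genes whose values are given here for comparison. Mrnip, which encodes a protein that works with the MRN DNA repair complex, is transcribed from the other strand and shares 580 exonic bases with Sqstm1, and Mgat4b, which encodes an enzyme of N-glycan branching, starts 62 bases from the Sqstm1 start in the opposite direction. Whether the authors' counting used strand is not given in the sources used here, and without strand the reads of Sqstm1 and Mrnip cannot be told apart in the shared bases. Depending on the strand setting, a row can hold reads of its partner, and how far this holds here was not tested. Mrnip had 1.91, 1.14 and 0 normalized counts in Nbr1-Sqstm1 DKO libraries, 1.02, 5.68 and 0 in Sqstm1 KO libraries, and 13.6, 17.3 and 10.3 in WT libraries. Its groups did not overlap with WT in either case, on 3, 8 and 50 reads over the groups. Mrnip reached the filter value of 10 in WT libraries only, so it entered the test through the group where it was high. From those reads, the ratio to WT per unit of depth was 0.0823 in Nbr1-Sqstm1 DKO (95% interval 0.0164 to 0.255) and 0.189 in Sqstm1 KO (0.0776 to 0.403), intervals that cover counting error only. By limma the difference passed in Nbr1-Sqstm1 DKO against WT (log2 fold change -2.97 ± 0.78 SE; adjusted p = 0.0354) and not in Sqstm1 KO against WT (-2.60 ± 0.78; adjusted p = 0.0704), and the first call was lost without any 1 of the Nbr1-Sqstm1 DKO libraries (adjusted p = 0.0876, 0.0883 and 0.185), in a range of 0.00542 to 0.185 over 14 alternatives.

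Mgat4b had 5.74, 7.99 and 6.37 normalized counts in Nbr1-Sqstm1 DKO libraries, 7.15, 18.7 and 10.8 in Sqstm1 KO libraries, and 15.0, 20.3 and 18.2 in WT libraries. All Nbr1-Sqstm1 DKO values lay below all WT values, whereas Sqstm1 KO overlapped both other groups. Mgat4b had a log2 fold change of -1.29 ± 0.43 (SE; limma adjusted p = 0.0927) in Nbr1-Sqstm1 DKO against WT, and -0.60 (adjusted p = 0.479) in Sqstm1 KO against WT. Mgat4b was picked after its values were seen. Of the other receptor genes, Optn, Tax1bp1 and Wdfy3 share 73, 160 and 554 exonic bases with genes of the other strand that have no row, and Nbr1, Calcoco1 and Tollip share none.

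**Figure D4:**
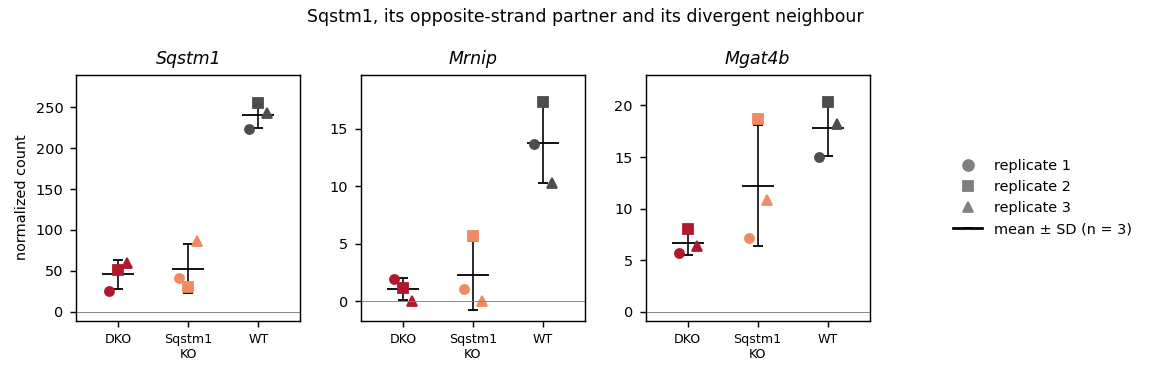
Normalized counts (vertical axes) of Sqstm1, Mrnip and Mgat4b in Nbr1-Sqstm1 DKO (DKO), Sqstm1 KO and WT libraries, with a symbol for each replicate and bars for mean ± SD (n = 3). Mrnip lies at 0 to 5.68 in the 6 knock-out libraries and at 10.3 to 17.3 in WT, and Mgat4b at 5.74 to 7.99 in Nbr1-Sqstm1 DKO and at 15.0 to 20.3 in WT.

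Of 12 tested initiation and nucleation factors, the machinery that receptors recruit, 0 were called in Sqstm1 KO against WT, 2 in Nbr1-Sqstm1 DKO against Sqstm1 KO and 1 in Nbr1-Sqstm1 DKO against WT, beside 5.61%, 5.93% and 6.42% of all tested genes. Rb1cc1, which encodes FIP200, the ULK complex scaffold that several receptors bind, had 27.7, 33.1 and 34.4 normalized counts in Nbr1-Sqstm1 DKO libraries, 62.3, 79.5 and 69.4 in Sqstm1 KO libraries, and 68.1, 114 and 105 in WT libraries. All 3 Nbr1-Sqstm1 DKO values lay below those of both other groups. Rb1cc1 fell by limma in Nbr1-Sqstm1 DKO against Sqstm1 KO (log2 fold change -1.12 ± 0.27 SE; adjusted p = 0.0256) and against WT (-1.54 ± 0.27 SE; adjusted p = 0.00345). The call against WT held without each library in turn (adjusted p = 0.000623 to 0.0381), whereas that against Sqstm1 KO was lost without Nbr1-Sqstm1 DKO replicate 1, 2 or 3 (adjusted p = 0.105, 0.0579 and 0.0834) or Sqstm1 KO replicate 2 (0.0861). Rb1cc1 shares 558 exonic bases with 4732440D04Rik on the other strand.

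Pik3c3, which encodes the lipid kinase VPS34, had 40.2, 47.9 and 35.7 normalized counts in Nbr1-Sqstm1 DKO libraries, 22.5, 17.9 and 17.4 in Sqstm1 KO libraries, and 23.2, 27.1 and 23.0 in WT libraries. All Nbr1-Sqstm1 DKO values were above all others. Pik3c3 rose by limma in Nbr1-Sqstm1 DKO against Sqstm1 KO (log2 fold change 1.06 ± 0.29 SE; adjusted p = 0.0487), a call lost without any 1 library (adjusted p = 0.0625 to 0.13), and its value of 0.73 against WT did not pass (adjusted p = 0.166). By limma 0, 3 and 3 of the 12 had an unadjusted p under 0.05 in Sqstm1 KO against WT, Nbr1-Sqstm1 DKO against Sqstm1 KO and Nbr1-Sqstm1 DKO against WT, beside 19.4%, 18.8% and 21.4% of all tested genes. Their median log2 fold change was -0.37, 0.37 and 0.11 in that order, beside -0.01, -0.01 and -0.02 over all tested genes.

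The ATG8 proteins and the enzymes that conjugate them, which the receptors bind, had 0 called genes of 13 tested in each of the 3 comparisons by limma, with 1, 0 and 0 at an unadjusted p under 0.05 in Sqstm1 KO against WT, Nbr1-Sqstm1 DKO against Sqstm1 KO and Nbr1-Sqstm1 DKO against WT. Over all tested genes these shares were 5.61%, 5.93% and 6.42% for calls and 19.4%, 18.8% and 21.4% for unadjusted p. The median log2 fold changes of the 13 were 0.12, -0.19 and -0.06 in that order, beside -0.01, -0.01 and -0.02. Gabarapl1, an ATG8 family gene, had a log2 fold change of 0.63 in Sqstm1 KO against WT (interval -0.04 to 1.30), in a gene that shares 570 exonic bases with 1700101I11Rik on the other strand, and Atg12, the ubiquitin-like partner of ATG5, -0.70 (interval -1.39 to -0.01; limma adjusted p = 0.25).

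Among 18 tested receptors for other cargo (endoplasmic reticulum, mitochondria, ferritin, glycogen and Golgi), 1 was called in each comparison with WT and 0 in Nbr1-Sqstm1 DKO against Sqstm1 KO, beside 5.61% and 6.42% of all tested genes in the comparisons with WT and 5.93% in the other. By limma 4, 3 and 2 of the 18 had an unadjusted p under 0.05 in Sqstm1 KO against WT, Nbr1-Sqstm1 DKO against Sqstm1 KO and Nbr1-Sqstm1 DKO against WT, beside 19.4%, 18.8% and 21.4% of all genes. Their median log2 fold changes were 0.06, 0.11 and 0.02 in that order, beside -0.01, -0.01 and -0.02. Stbd1, which encodes a glycogen-binding receptor, had 38.2, 29.7 and 21.7 normalized counts in Nbr1-Sqstm1 DKO libraries, 27.6, 24.4 and 31.4 in Sqstm1 KO libraries, and 9.53, 4.52 and 12.1 in WT libraries. All 6 knock-out values of Stbd1 lay above all WT values. Of the WT libraries only replicate 3 reached the filter value of 10, so Stbd1 entered the test through the groups where it was high. Stbd1 rose in Sqstm1 KO against WT (by 1.65 ± 0.39 SE on the log2 scale; limma adjusted p = 0.0234) and in Nbr1-Sqstm1 DKO against WT (1.72 ± 0.39 SE; adjusted p = 0.0164). Stbd1 was no longer called in Sqstm1 KO without Sqstm1 KO replicate 1 (adjusted p = 0.0593), WT replicate 1 (0.0627) or WT replicate 2 (0.138), nor in Nbr1-Sqstm1 DKO without its replicate 1 (0.0805) or WT replicate 2 (0.0969).

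Kinases, ubiquitin enzymes and signalling partners of the receptors had 0 called genes of 11 tested in each comparison by limma, where 5.61%, 5.93% and 6.42% of all genes were called in Sqstm1 KO against WT, Nbr1-Sqstm1 DKO against Sqstm1 KO and Nbr1-Sqstm1 DKO against WT. At an unadjusted p under 0.05 there were 3, 0 and 1 of the 11, beside 19.4%, 18.8% and 21.4% of all genes. In both comparisons with WT 10 of the 11 log2 fold changes were negative, beside 51% and 51.2% of all genes, with medians of -0.35 in Sqstm1 KO and -0.24 in Nbr1-Sqstm1 DKO, beside -0.01 and -0.02. Vdr, which encodes the vitamin D receptor, did not pass the filter on low values, with 13.4, 6.85 and 7.64 normalized counts in Nbr1-Sqstm1 DKO libraries, 1.02, 0.812 and 0 in Sqstm1 KO libraries, and 4.09, 2.26 and 3.64 in WT libraries. With no filter it was called in Nbr1-Sqstm1 DKO against Sqstm1 KO (limma adjusted p = 0.0116), on 26 reads in the first group, 2 in the second and 12 in WT; it was named after its values were seen. Tbk1, which encodes the kinase that phosphorylates OPTN and p62 and acts downstream of STING, had 26.8, 35.4 and 29.3 normalized counts in Nbr1-Sqstm1 DKO libraries, 28.6, 42.2 and 38.0 in Sqstm1 KO libraries, and 49.0, 70.8 and 63.1 in WT libraries. All 6 knock-out values lay below all WT values. The log2 fold change of Tbk1 was -0.97 ± 0.29 (SE; limma adjusted p = 0.0607) in Nbr1-Sqstm1 DKO against WT and -0.74 (adjusted p = 0.167) in Sqstm1 KO against WT; the first passed by edgeR (adjusted p = 0.0466), by DESeq2 (0.0432), after quantile normalization (0.0441), with only these 2 groups in the fit (0.0258) and without Sqstm1 KO replicate 3 (0.0239), in a range of 0.0239 to 0.273 over 17 alternatives. Keap1 had a log2 fold change of -0.76 in Sqstm1 KO against WT (adjusted p = 0.234) and shares 510 exonic bases with a gene of the other strand that has no row.

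Of 4 tested transcription factors known to drive receptor genes, Foxo3 alone was called, in Sqstm1 KO against WT and in Nbr1-Sqstm1 DKO against Sqstm1 KO, where 5.61% and 5.93% of all genes were called. Foxo3, a forkhead factor that acts on autophagy genes, had 39.2, 58.2 and 26.8 normalized counts in Nbr1-Sqstm1 DKO libraries, 9.19, 16.2 and 8.68 in Sqstm1 KO libraries, and 24.5, 45.9 and 44.3 in WT libraries. All 3 Sqstm1 KO values lay below those of both other groups. Foxo3 fell in Sqstm1 KO against WT (log2 change -1.67 ± 0.39 SE; limma adjusted p = 0.0217) and rose in Nbr1-Sqstm1 DKO against Sqstm1 KO (1.76 ± 0.39 SE; adjusted p = 0.0141), comparisons that share the Sqstm1 KO libraries. The first call was lost without Sqstm1 KO replicate 1 (adjusted p = 0.0631), WT replicate 2 (0.131) or WT replicate 3 (0.11), and the second without Nbr1-Sqstm1 DKO replicate 1 (0.0537) or 2 (0.0665). The same Sqstm1 KO libraries had 0 reads of the 4 Y-linked genes.

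Of NRF2 targets, to which Sqstm1 belongs, 5 were tested; 1 rose in Sqstm1 KO against WT, 0 were called in Nbr1-Sqstm1 DKO against Sqstm1 KO by limma, and 1 fell in Nbr1-Sqstm1 DKO against WT, beside 5.61%, 5.93% and 6.42% of all genes called in either direction. At an unadjusted p under 0.05 there were 2, 2 and 4 of the 5 in that order, beside 19.4%, 18.8% and 21.4% of all genes. The median log2 fold changes were -0.24, -0.67 and -0.66, beside -0.01, -0.01 and -0.02 over all genes. Slc7a11, the cystine transporter gene, had 8.61, 13.7 and 21.7 normalized counts in Nbr1-Sqstm1 DKO libraries, 29.6, 47.9 and 15.2 in Sqstm1 KO libraries, and 2.72, 7.53 and 3.64 in WT libraries. Slc7a11 rose in Sqstm1 KO against WT (by 2.45 ± 0.51 SE on the log2 scale; limma adjusted p = 0.0108) and its value of 1.48 in Nbr1-Sqstm1 DKO against WT did not pass (adjusted p = 0.107), although every knock-out library lay above every WT library. Slc7a11 reached the filter value of 10 in knock-out libraries only, so it entered the test through the groups where it was high. It had 18 reads over the WT group. Slc7a11 was no longer called once WT replicate 1 (adjusted p = 0.0654) or 3 (0.0518) was left out. Srxn1, which encodes sulfiredoxin, had 9.56, 12.6 and 15.3 normalized counts in Nbr1-Sqstm1 DKO libraries, 17.4, 24.4 and 23.9 in Sqstm1 KO libraries, and 36.8, 28.6 and 33.4 in WT libraries. The 3 groups did not overlap. Srxn1 fell in Nbr1-Sqstm1 DKO against WT (-1.35 ± 0.33 SE; adjusted p = 0.0247), a call lost without Nbr1-Sqstm1 DKO replicate 1 (adjusted p = 0.0847) or WT replicate 1 (0.0932), 2 (0.0798) or 3 (0.109). Gclm, a subunit of the glutathione synthesis enzyme, had a log2 fold change of -0.91 in Nbr1-Sqstm1 DKO against WT (adjusted p = 0.0781) and shares 296 exonic bases with a gene of the other strand that has no row.

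**Figure D5:**
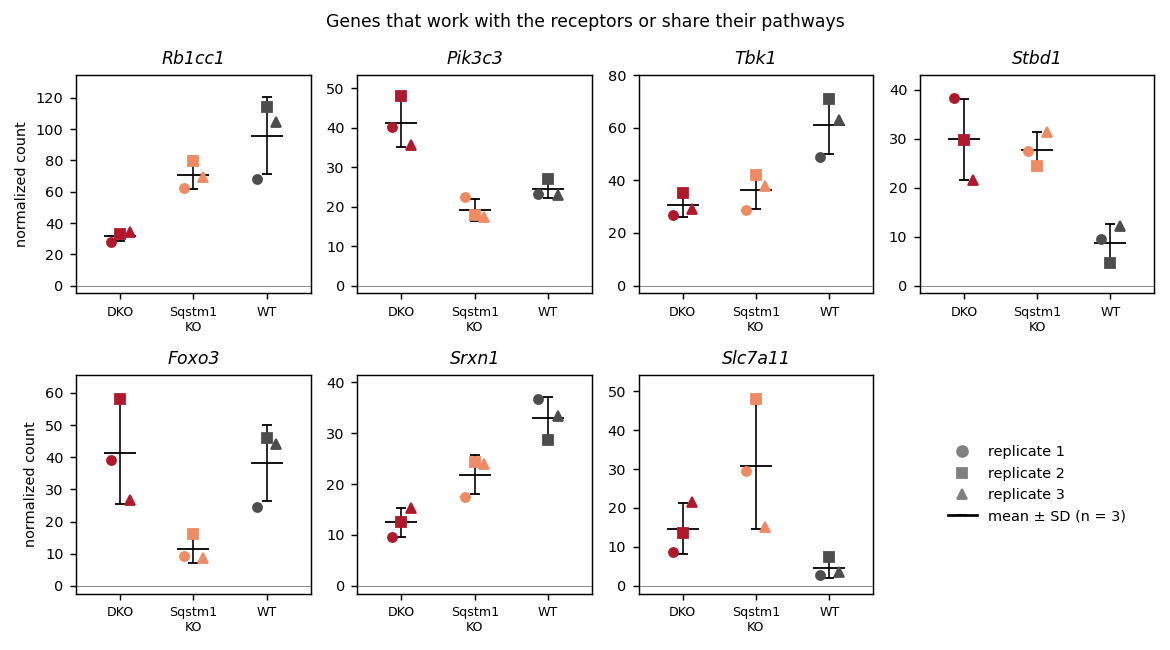
Normalized counts (vertical axes, grey line at 0) of 7 genes that work with the receptors or share their pathways, in Nbr1-Sqstm1 DKO (DKO), Sqstm1 KO and WT libraries, with a symbol for each replicate and bars for mean ± SD (n = 3). Rb1cc1 is lowest in Nbr1-Sqstm1 DKO (27.7 to 34.4), Stbd1 is at 21.7 to 38.2 in both knock-out groups and 4.52 to 12.1 in WT, and Foxo3 is lowest in Sqstm1 KO (8.68 to 16.2).

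The genes whose log2 levels followed each receptor most closely over the 9 libraries were taken by Pearson correlation, as a description over libraries that fall into 3 genotype groups. They were picked as the highest among the tested genes, predicted genes left out, so a high r follows from the selection. For Sqstm1 they were Cd63, a tetraspanin of late endosomes (r = 0.973), Tspyl1 (r = 0.966) and Chmp5, an ESCRT-III component (r = 0.962). Cd63 had 157, 184 and 186 normalized counts in Nbr1-Sqstm1 DKO libraries, 183, 155 and 196 in Sqstm1 KO libraries, and 294, 316 and 356 in WT libraries, and so had its step at the same place as Sqstm1. For Nbr1 they were Rrp1 (r = 0.906), Mgat4a (r = 0.89) and Hes3 (r = 0.889), and for Optn they included Frmd8 (r = 0.914) and Dnmt3a (r = 0.912).

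For Tax1bp1 the nearest genes included Smim11 (r = 0.979) and Nasp (r = 0.973), and for Calcoco1 they were LOC115490137 (r = 0.973), Arid1a (r = 0.953) and Odf2 (r = 0.927). For Tollip they were Dync1h1 (r = 0.979), Ckap5 (r = 0.975) and Bcl9l (r = 0.969), and for Wdfy3 Snx13 (r = 0.981), P2rx4 (r = 0.953) and Med13 (r = 0.946). Without Sqstm1 KO replicate 3, over 8 libraries, the r of Tollip with Bcl9l was 0.866 and that of Wdfy3 with Med13 was 0.845. In that library log2 deviations from the other 2 of its group went with exonic length at a Spearman rho of -0.252 across 9119 genes, against 0.289 in Sqstm1 KO replicate 2 and -0.153 to 0.112 in the other libraries; genes are not independent replicates. Among the 7 receptor genes, Wdfy3 (15.346 kb), Calcoco1 (5.731 kb) and Tollip (5.059 kb) were at their lowest of the 9 libraries there. Tax1bp1 (9.991 kb) was at its highest.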

How the data were processed

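RNA was read from 9 libraries of cultured mouse hepatic stellate cells. Per the submitters' processing notes, STAR and DESeq2 were used with the GRCm39 build; neither the counting tool nor its strand setting is named there, in the labels or in the file. The authors' deposited table holds signal values, read counts divided by 1 size factor for each library. Every one of 121126 values above 0 was a whole multiple of what 1 read is worth in its library (100%, tolerance 0.01), so reads were recovered; libraries held 819677 to 1467793 reads, and low genes are limited by counting. Strand matters here: of the 100 highest genes matched to GENCODE M21, 71 share exonic bases with a gene on the other strand, against 36.2% of the other matched genes. The mean over the libraries was 10632 normalized counts for Pcsk7 and 271 for Tagln. Whether rows hold reads of the other strand was not tested.

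Tests covered the 10118 of 14020 genes that reached 10 in 3 or more libraries, on log2(value + 1) with limma 3.58.1 in R 4.3.3, with a mean-variance trend, all 9 libraries in 3 groups and a shared spread; p-values were two-sided and adjusted after Benjamini and Hochberg over all tested genes, with calls at 0.05. A fold change on this scale understates the change of low genes. Alternatives were pseudocounts of 0.5 and 5, no filter, a minimum of 50, quantile normalization, edgeR 4.0.16 quasi-likelihood with TMM and DESeq2 1.42.0 on recovered reads, the 2 compared groups alone, each library left out and a replicate block. The script was tested on simulated data. The genes and lists were chosen with earlier results of these data known. Named genes were the 7 receptors, their opposite-strand partners, the 3 genes closest to each by correlation (predicted genes left out; 2 genes that this rule gave are not reported here), and list members called in any comparison or, as examples, up to 4 by smallest p; Mgat4b was added after its values were seen. Exon lengths and overlaps came from GENCODE M21 and promoters from RefSeq, both on GRCm38.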

Additional observations from a re-analysis of the deposited data

How the results depend on the processing

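Sqstm1 was called lower in both comparisons with WT under all alternatives run, with a log2 fold change of -2.72 to -1.99 in Sqstm1 KO and -2.69 to -2.09 in Nbr1-Sqstm1 DKO when each library was left out, and 0 of the other 6 receptor genes were called under any of them. Over all genes, 568, 600 and 650 were called in Sqstm1 KO against WT, Nbr1-Sqstm1 DKO against Sqstm1 KO and Nbr1-Sqstm1 DKO against WT. A separate fit with a minimum of 50 called 290, 291 and 360 in that order out of 3921 tested genes; that minimum removes Optn, Calcoco1, Tollip and Wdfy3. With the 2 compared groups alone the count was 351 in Nbr1-Sqstm1 DKO against Sqstm1 KO and 1260 in Nbr1-Sqstm1 DKO against WT; the cause was not tested. Leaving out each library gave 226 (without WT replicate 2) to 651 (without Sqstm1 KO replicate 3), 243 (without Nbr1-Sqstm1 DKO replicate 3) to 764 (without Sqstm1 KO replicate 3) and 251 (without Nbr1-Sqstm1 DKO replicate 3) to 1409 (without Sqstm1 KO replicate 3) in the 3 comparisons in that order. On recovered reads edgeR called 642, 614 and 735 genes and DESeq2 802, 716 and 880.

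Small values turned sign: Wdfy3 in Nbr1-Sqstm1 DKO against Sqstm1 KO was -0.03 by edgeR and -0.02 by DESeq2, and Tollip in Nbr1-Sqstm1 DKO against WT was 0.07 and 0.06. With each library left out, the log2 fold change in Nbr1-Sqstm1 DKO against Sqstm1 KO ranged from -0.46 to 0.27 for Sqstm1, -0.02 to 0.30 for Optn, 0 to 0.58 for Calcoco1, -0.38 to 0.76 for Tollip, -0.42 to 0.47 for Wdfy3 and -1 to 0.37 for Mrnip, and Tollip ranged from -0.78 to 0.36 in Sqstm1 KO against WT and -0.32 to 0.19 in Nbr1-Sqstm1 DKO against WT. Mrnip could not be tested with any WT library left out; in Sqstm1 KO against WT it passed with a pseudocount of 5 (adjusted p = 0.0247), by DESeq2 (0.0483), with no filter (0.0494) and without Sqstm1 KO replicate 2 (0.0373), and in Nbr1-Sqstm1 DKO against WT it did not with a pseudocount of 0.5 (0.0634). Pik3c3 did not pass with a pseudocount of 0.5 (0.0505), with no filter (0.0572), after quantile normalization (0.0556) or with the 2 groups alone (0.128), and Rb1cc1 in Nbr1-Sqstm1 DKO against Sqstm1 KO did not with the 2 groups alone (0.0656). Mgat4b in Nbr1-Sqstm1 DKO against WT passed with the 2 groups alone (0.0446). In that comparison 3 NRF2 targets were called without Sqstm1 KO replicate 3, and 0 without Nbr1-Sqstm1 DKO replicate 1 or any 1 of the WT libraries.

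Deviations of same-numbered libraries correlated at -0.115 to 0.178, not all over 0.1. The main fit did not pair the samples by number, and these values cannot exclude a pairing. Of 9 libraries 6 correlated best with their own number, a hint from the data and not the design. With the replicate block 690, 672 and 754 genes were called in Sqstm1 KO against WT, Nbr1-Sqstm1 DKO against Sqstm1 KO and Nbr1-Sqstm1 DKO against WT, Sqstm1 had adjusted p-values of 0.000714, 0.834 and 0.000308, and Tbk1 in Nbr1-Sqstm1 DKO against WT passed (0.046), as did Mrnip in Sqstm1 KO against WT (0.0466), while Pik3c3 did not (0.0595). Depth limits the low genes most: Optn had 5 to 11 reads in each knock-out library.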
